A study of Homo sapiens with 10 samples.

Results

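ERG is a transcription factor of the ETS family, whose members bind DNA at sites built around a GGAA core. EWS is an RNA-binding protein of the FET family that the study mapped as a co-activator of ERG. ERG is silent in normal prostate epithelium and is switched on in many prostate cancers by a gene fusion, so a normal prostate line given ERG is a common model of that step. The regions described here are the ERG ChIP-seq peaks that were listed in cells with the point mutant ERG P436A and in no other ERG list of the study.

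The mutant and the wild-type protein were each stably expressed in RWPE1, a line from normal prostate, under selection with puromycin and hygromycin. Per the labels' protocols these cells grew in Keratinocyte SFM medium with bovine pituitary extract and human recombinant epidermal growth factor. VCaP, a prostate cancer line that makes its own ERG, was the second line and grew untreated in DMEM with serum. ERG was precipitated with antibody clone 9FY and EWS with clone G5. Neither the promoter that drove ERG nor whether a line was 1 clone is given in the sources used here, and the labels do not say what the P436A change does to the protein.

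Of the 10 samples, 7 had a peak list each, 4 for ERG and 3 for EWS. ERG P436A had 1 list, and so did every other group except wild-type ERG in RWPE1, which had 2. The ERG P436A list held 1746 peaks. Chromosomes 5, 9 and 20 and a 14 Mb stretch of chromosome 1 (chr1:188000001-202000000) were left out, and 944 of the 1746 peaks lay elsewhere. Of these, 744 shared not even 1 bp with a peak of wild-type replicate 1, wild-type replicate 2 or VCaP ERG. These 744 peaks are called P436A-only below, and the other 200 are the P436A peaks found in another ERG list. The 7 lists together held 30301 peaks, so the P436A-only peaks are a small part of the series.

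The peaks were chosen by their lack of overlap with the other ERG lists, so the following counts describe that choice and carry no test. P436A-only peaks made up 78.8% of the 944 (exact 95% interval 76.1% to 81.4%). Under the same rule, 945 of 1198 wild-type replicate 1 peaks were in no other ERG list, or 78.9% (76.5% to 81.2%). For wild-type replicate 2 this was 879 of 1005, or 87.5% (85.3% to 89.4%), and for VCaP ERG 6147 of 6342, or 96.9% (96.5% to 97.3%). The mutant list was thus no richer in unshared peaks than either wild-type list. All intervals here cover counting error only, and because peaks of 1 list are not replicates and ERG P436A has a single list, no p-value is given.

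Absence from another list is absence from a list and not a measured absence of binding, since the files give no read counts. Among the 200 P436A peaks found elsewhere, 88 were in wild-type replicate 1 alone, 46 in VCaP ERG alone and 25 in wild-type replicate 2 alone. A further 20 were in both wild-type lists and 4 in all 3 other ERG lists.

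The edge of the rule was narrow for few peaks. The P436A-only peak closest to another ERG peak, at chr17:43325920-43326415, was 55 bp from a VCaP ERG peak. The next lay at chr18:3351112-3351609, 70 bp from a wild-type replicate 1 peak, and at chr15:75164962-75165432, 95 bp from a VCaP ERG peak. Peaks at chr8:143137239-143137692 and chr14:103985113-103985589 followed, 245 bp from a VCaP ERG peak and 261 bp from a wild-type replicate 2 peak. On the other side of the rule, the P436A peak that was left out with the least overlap lay at chr8:145639026-145639512 and shared 84 bp with VCaP ERG. The next 2 were chr11:63330173-63330645 with 107 bp and chr14:65380937-65381436 with 114 bp, both shared with VCaP ERG. The last 2 were chr2:191747722-191748216, which shared 117 bp with wild-type replicate 1, and chr1:91853168-91853668, which shared 119 bp with wild-type replicate 2.

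Most P436A-only peaks were far from any such edge. The median distance to the nearest peak was 193 kb for VCaP ERG, 362 kb for wild-type replicate 1 and 432 kb for wild-type replicate 2. A wild-type replicate 1 peak lay within 1 kb of 7 of the 744, a wild-type replicate 2 peak within 1 kb of 6 and a VCaP ERG peak within 1 kb of 11. Within 10 kb these numbers were 34, 31 and 58.

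P436A-only peaks were as narrow as the rest of their list. Their width ran from 335 to 501 bp with a median of 489 bp, against 394 to 501 bp and a median of 491 bp for the 200 found elsewhere. They stood later in the listed order, at a median place of 805.5 of 1746 (quartiles 407.75 and 1206.25), where the 200 had a median place of 526.5 (226.5 and 1095.25). Among the first 437 peaks of the list, 70.7% of those in the kept regions were P436A-only (65.0% to 75.9%), and in the 3 later parts of about the same length the share was 81.3%, 82.6% and 83.3%. The order is not documented as a ranking. It runs through the genome in 255 stretches of rising position.

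The first 10 P436A-only peaks in listed order came from 8 chromosomes, and none of them had an EWS peak in any list. The first was chr1:32052665-32053135, at place 2 of the list, 163 kb from any other ERG peak. It was followed by chr19:49950706-49951202, 3189 bp from another ERG peak, and by chr15:34781151-34781591. Next came chr22:50659534-50660013 and chr2:220115300-220115792, the latter 737 bp from another ERG peak and so the closest of the 10. The peak at chr1:121118200-121118696 was the most isolated of them, 901 kb from any other ERG peak. The last 4 were chr6:78527676-78528151, chr13:114103124-114103595, chr10:3171973-3172454 and chr19:45885661-45886160.

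P436A-only peaks were spread over 20 chromosomes, and 401 of the 744 (53.9%) lay on 5 of them. Chromosome 1 had 156 (21%, 18.1% to 24.1%), chromosome 10 had 75 (10.1%, 8.01% to 12.5%), chromosome 8 had 62 (8.33%, 6.45% to 10.6%), chromosome 2 had 57 (7.66%, 5.85% to 9.81%) and chromosome 17 had 51 (6.85%, 5.15% to 8.91%). Chromosome 22 carried 2 and chromosome Y 1. Chromosome X carried 0, which allows a share of up to 0.403%, and its single P436A peak in the kept regions was in another ERG list.

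**Figure D1:**
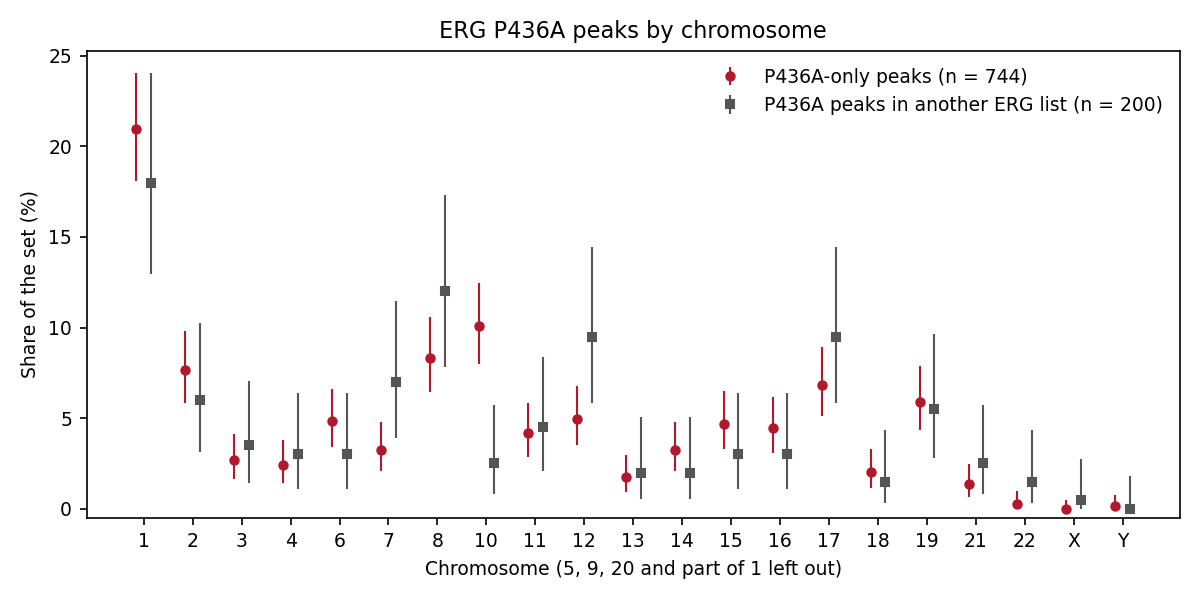
Share of each set of ERG P436A peaks (vertical axis, percent) on each chromosome (horizontal axis), with P436A-only peaks as circles, P436A peaks found in another ERG list as squares, and exact 95% intervals as bars. Chromosome 10 holds 10.1% of the P436A-only peaks and 2.50% of the others, and the 2 intervals do not overlap there.

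Of the 21 chromosomes with a P436A peak in the kept regions, chromosome 10 was the 1 at which the intervals of the 2 sets did not overlap. It carried 75 of the 744 P436A-only peaks and 5 of the 200 found elsewhere (2.50%, 0.817% to 5.74%). Put the other way, 93.8% of the 80 P436A peaks on chromosome 10 were P436A-only (86.0% to 97.9%), against 81.3% on chromosome 1, 72.1% on chromosome 8 and 63.2% on chromosome 7. Chromosome 10 was singled out after its values were seen, and since the rule decided which peaks were shared, this is a description. The unshared peaks of the wild-type lists had smaller shares there, 5.08% in replicate 1 (3.77% to 6.68%) and 4.10% in replicate 2 (2.88% to 5.63%). The EWS list of P436A cells, which took no part in the rule, had 8.24% of its kept peaks on chromosome 10 (6.55% to 10.2%), and the wild-type EWS list had 5.14% (4.40% to 5.95%). With each antibody, the interval of the P436A set lay above those of the wild-type sets made with the same antibody.

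Along chromosome 10 the P436A-only peaks were spread out, with 1 to 15 in every 10 Mb bin. The bin from 100 to 110 Mb had the most, 15, with 13 EWS peaks of P436A cells in the same bin. From 70 to 80 Mb there were 11 P436A-only peaks and 11 such EWS peaks. Of the 75 P436A-only peaks on this chromosome, 1 overlapped an EWS peak of P436A cells (1.33%, 0.0338% to 7.21%), beside 1.38% of all 944 P436A peaks. With any EWS list there were 4 (5.33%, 1.47% to 13.1%), beside 5.93% of the 944.

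On chromosome 1 the P436A-only peaks continued past the stretch that was left out. Between that stretch and the end of the chromosome lay 75 of them (10.1% of the set), beside 81 in the much longer part before it. The first 8 Mb beyond it, up to 210 Mb, held 38, and the 10 Mb from 220 to 230 Mb held 29, bounds that were picked after the counts were seen. Unshared peaks of wild-type replicate 1 were placed much the same way, with 9.42% of them in this end part, whereas replicate 2 had 3.30% and VCaP ERG 0.634% there. The EWS lists of RWPE1 also had many peaks in it, 8.98% of the kept list with P436A and 11.2% with wild-type ERG, against 0.210% of VCaP EWS. Crowding of this chromosome end was thus seen with both antibodies in RWPE1 and in wild-type replicate 1 too.

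On chromosome 8, 47 of the 62 P436A-only peaks lay beyond 120 Mb, or 6.32% of the set, and 15 lay below it. All 24 P436A peaks of this chromosome that were found in another ERG list lay beyond 120 Mb as well. Wild-type replicate 1 had 50 unshared peaks beyond 120 Mb and wild-type replicate 2 had 25, against 25 and 9 below it.

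Counted in 10 Mb bins, the number of P436A-only peaks rose moderately with the numbers in other RWPE1 lists. Single bins could differ, as the 100 to 110 Mb bin of chromosome 10 held 15 P436A-only peaks but 3 peaks of wild-type replicate 1 and 4 of replicate 2. Over 270 bins with a peak in any list, the Spearman correlation across bins was 0.56 with the unshared peaks of wild-type replicate 2, 0.51 with those of replicate 1 and 0.47 with the P436A peaks found elsewhere. It was 0.53 with the EWS list of P436A cells and 0.40 with that of wild-type ERG cells, but 0.23 with unshared VCaP ERG peaks and 0.14 with VCaP EWS peaks. Bins are not independent and share their gene density and mappability, and lists from 1 line share its chromosomes, so these values are a description.

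The P436A-only peaks fell into 502 megabases, of which 369 held 1 each, so 49.6% of the peaks had no other within their megabase. At the other end, 16 megabases held 5 or more, 102 peaks in all. The fullest had 9 each, all on chromosome 1, at chr1:202000001-203000000, chr1:206000001-207000000 and chr1:227000001-228000000. In 4 of the 16 no P436A peak was found elsewhere, and these 4 differed in EWS. The one at chr1:227000001-228000000 had 6 EWS peaks of P436A cells and 41 of wild-type ERG cells. The one at chr8:142000001-143000000, with 5 P436A-only peaks, had 2 EWS peaks of P436A cells, 4 of wild-type ERG cells and 3 of VCaP. Those at chr10:105000001-106000000 and chr14:105000001-106000000 held 6 P436A-only peaks each and had 1 EWS peak each over the 3 lists.

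The median gap between neighbouring P436A-only peaks was 1041 kb (quartiles 241 and 3233 kb), and the smallest gap was 1403 bp. It was 1146 kb among the 945 unshared peaks of wild-type replicate 1 and 880 kb among the 879 of replicate 2, which are longer sets. Gaps under 5 kb numbered 7 among the P436A-only peaks, 30 in replicate 1 and 38 in replicate 2. Close pairs were thus fewer in the mutant set, which is also the smallest of the 3. Of the 744 P436A-only peaks, 10 lay within 5 kb of a P436A peak that was found elsewhere and 73 within 100 kb. Only 200 such peaks exist in the kept regions, and no expected count was worked out.

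A cluster was taken as at least 3 P436A-only peaks with gaps of at most 100 kb. There were 16 clusters, with 69 of the 744 peaks (9.27%, 7.29% to 11.6%). Over all 944 P436A peaks of the kept regions the same count gave 13.7%, a larger share because more peaks were joined. Unshared peaks of wild-type replicate 1 were in clusters in 12.1% (10.1% to 14.3%) and those of replicate 2 in 9.56% (7.69% to 11.7%), intervals that overlap that of the mutant. The largest cluster had 8 peaks for P436A and for replicate 1, and 56 for replicate 2. Chromosome 1 held 8 of the 16 clusters and chromosome 8 held 4. Chromosome 10, for all its peaks, held 2. The share depends on the gap, with 1.34% of peaks in clusters at a gap of 20 kb and 32.8% at 500 kb.

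The largest cluster covered 278 kb at chr1:206584724-206863051 and held 8 P436A-only peaks. Within it lay 1 P436A peak found elsewhere, 0 peaks of wild-type replicate 1, 1 of wild-type replicate 2 and 0 of VCaP ERG. EWS was listed there 3 times in P436A cells, 7 times in wild-type ERG cells and 0 times in VCaP. Of the 8 ERG peaks, chr1:206635990-206636438 overlapped an EWS peak, and this was one of wild-type ERG cells. The others began at 206584724, 206633495, 206685580, 206729754, 206751661, 206762552 and 206862553.

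The second cluster covered 272 kb at chr8:128714607-128987019 with 6 P436A-only peaks. Here the other lists were not empty, with 2 peaks of wild-type replicate 1, 1 of replicate 2 and 5 of VCaP ERG. EWS had 16 peaks of VCaP and 4 of wild-type ERG cells in the span, and 0 of P436A cells. The last ERG peak, chr8:128986523-128987019, overlapped an EWS peak of wild-type ERG cells.

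The next 4 clusters were tied at 5 P436A-only peaks, and their spans ran from 84.7 to 298 kb. The first of them in genome order covered 181 kb at chr1:144933692-145114993. EWS had 3 peaks of P436A cells, 9 of wild-type ERG cells and 3 of VCaP in it, the most EWS peaks of RWPE1 in any cluster here except the cluster at chr1:227529769-227718851, which had 4 and 9. Its first peak, chr1:144933692-144934186, overlapped an EWS peak of wild-type ERG cells.

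**Figure D2:**
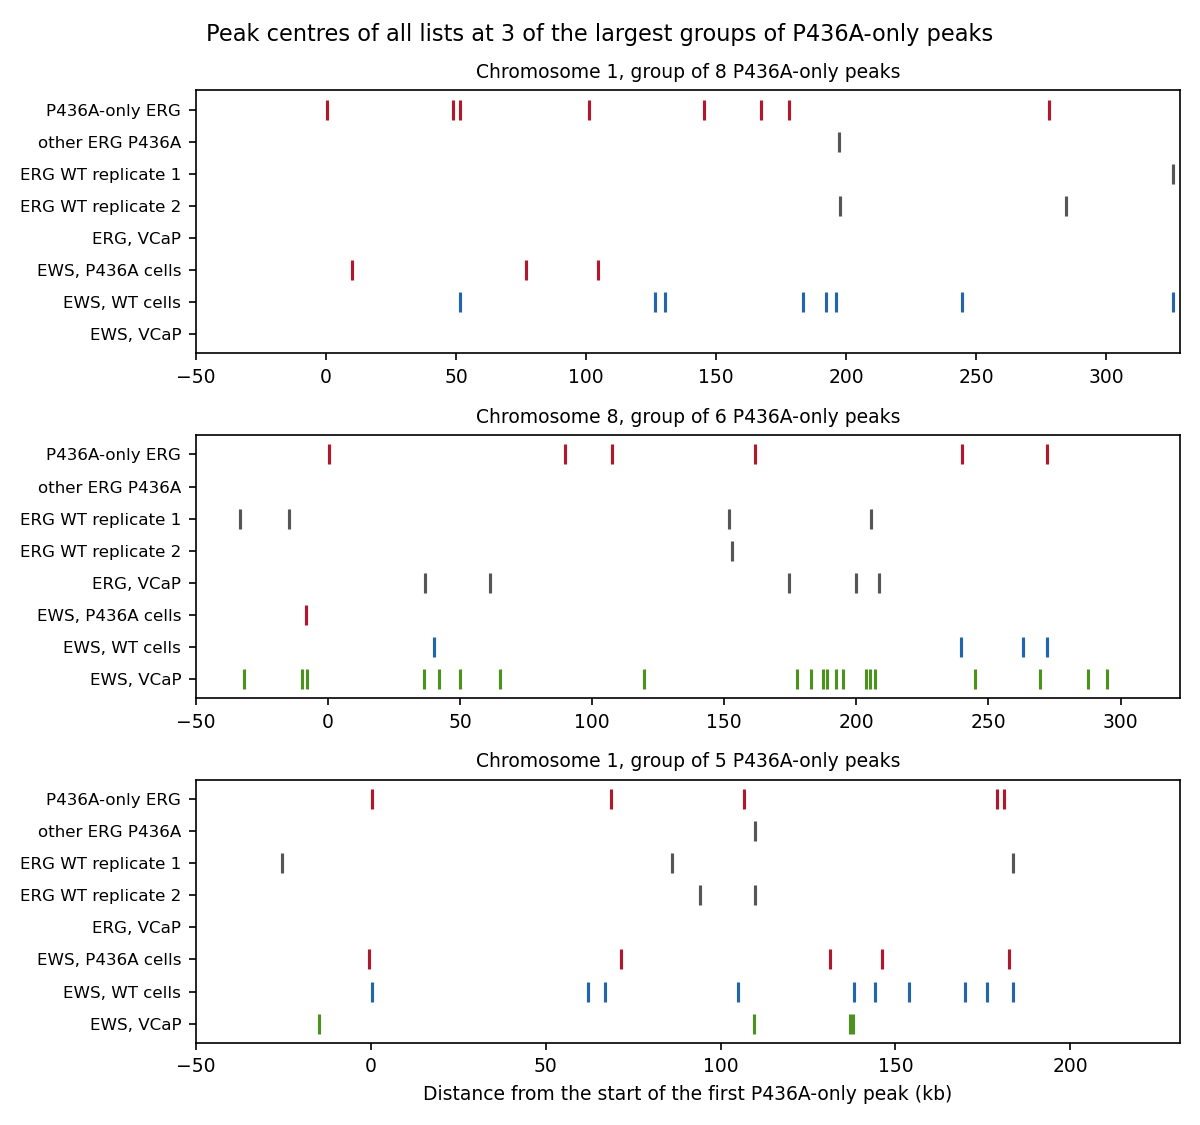
Peak centres of the 7 lists at 3 of the largest clusters of P436A-only peaks (the last is 1 of 4 with 5 peaks), 1 cluster per panel, against distance from the start of its first P436A-only peak (horizontal axis, kb), with the ERG P436A list split into P436A-only and other peaks. The panels hold 8, 6 and 5 P436A-only peaks, and VCaP EWS has 16 peaks in the span of the chromosome 8 cluster and 0 in that of the first.

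Across the 16 clusters, each span held an EWS peak of at least 1 list, which the wild-type EWS list mostly provided. That list has 3252 kept peaks, and the median distance from a P436A-only peak to one of them was 191 kb. The spans are up to 298 kb long, and stretches of equal length elsewhere were not counted. Whether an EWS peak in a span sets the clusters apart was therefore not tested. An EWS peak of wild-type ERG cells was missing from 2 spans, one of P436A cells from 9 and one of VCaP from 11. Wild-type replicate 1 had an ERG peak in 6 spans, wild-type replicate 2 in 5 and VCaP ERG in 6. The tightest cluster, chr17:80196344-80211217, held 4 P436A-only peaks in 14.9 kb with no other ERG peak, and 1 EWS peak of wild-type ERG cells overlapped one of them. Of the 69 clustered peaks, 7 overlapped an EWS peak of any list (10.1%, 4.18% to 19.8%), beside 5.93% of all 944 P436A peaks of the kept regions. With EWS of P436A cells there were 0 of the 69 (exact interval up to 5.21%), beside 1.38% of the 944.

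EWS peaks were found at few P436A-only peaks. In the same cells, the EWS list overlapped 5 of the 744 (0.672%, 0.219% to 1.56%), where it overlapped 1.38% of all 944 P436A peaks. The EWS list of wild-type ERG cells overlapped 11 (1.48%, 0.740% to 2.63%), against 2.44% of all 944. VCaP EWS overlapped 16 (2.15%, 1.23% to 3.47%), against 3.07% of all 944. With any of the 3 lists there were 30 (4.03%, 2.74% to 5.71%), against 5.93% of all 944. The lists differ in length, with 935, 3252 and 8584 EWS peaks in the kept regions. The 5, 11 and 16 EWS peaks at P436A-only sites were thus 0.535% (0.174% to 1.24%), 0.338% (0.169% to 0.604%) and 0.186% (0.107% to 0.303%) of them, with intervals that overlap. At the 200 peaks found elsewhere these values were 0.856%, 0.369% and 0.151%, in the same order.

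The 200 P436A peaks found in another ERG list had larger shares with EWS in each of the 3 lists. Those with an EWS peak of P436A cells were 8 (4.0%, 1.74% to 7.73%), those with one of wild-type ERG cells 12 (6.0%, 3.14% to 10.2%) and those with one of VCaP 13 (6.50%, 3.51% to 10.9%). With any EWS list there were 26 (13%, 8.67% to 18.5%), and the interval does not overlap that of the P436A-only peaks. The intervals did overlap under 3 of 13 alternatives. Without wild-type replicate 2 in the rule the shares were 5.07% (3.63% to 6.87%) and 9.71% (5.76% to 15.1%). With a reciprocal overlap of 0.5 in the rule they were 5.28% (3.85% to 7.05%) and 10.0% (5.43% to 16.5%), and with the left-out regions kept in 8.03% (6.64% to 9.60%) and 12.5% (9.33% to 16.3%). The EWS lists took no part in choosing the peaks, but no test was made between the 2 sets, as peaks of 1 list share their library. When wild-type replicate 2 took no part in the rule, the share with EWS of P436A cells was 1.30%, or 10 of 769 peaks. The main value was 0.672%, and its interval of 0.219% to 1.56% includes the 1.30%. Without replicate 1 the share was 0.841%.

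Unshared peaks of the wild-type lists did not all have few EWS peaks. Those of wild-type replicate 1 had an EWS peak of their own cells in 7.51% (5.91% to 9.38%), about the 6.72% (3.96% to 10.5%) of its peaks found in another list. Those of wild-type replicate 2 had one in 1.48% (0.790% to 2.52%), against 7.94% (3.87% to 14.1%) of its peaks found in another list. The P436A-only peaks, at 0.672% with EWS of their own cells and 1.48% with EWS of wild-type ERG cells, were near replicate 2 and below replicate 1 on the second measure. For EWS of P436A cells, the unshared peaks of the 2 wild-type lists were at 0.529% (0.172% to 1.23%) and 0.910% (0.394% to 1.79%). With EWS of wild-type ERG cells, the 2 wild-type replicates thus stood further apart than the mutant and replicate 2 did.

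**Figure D3:**
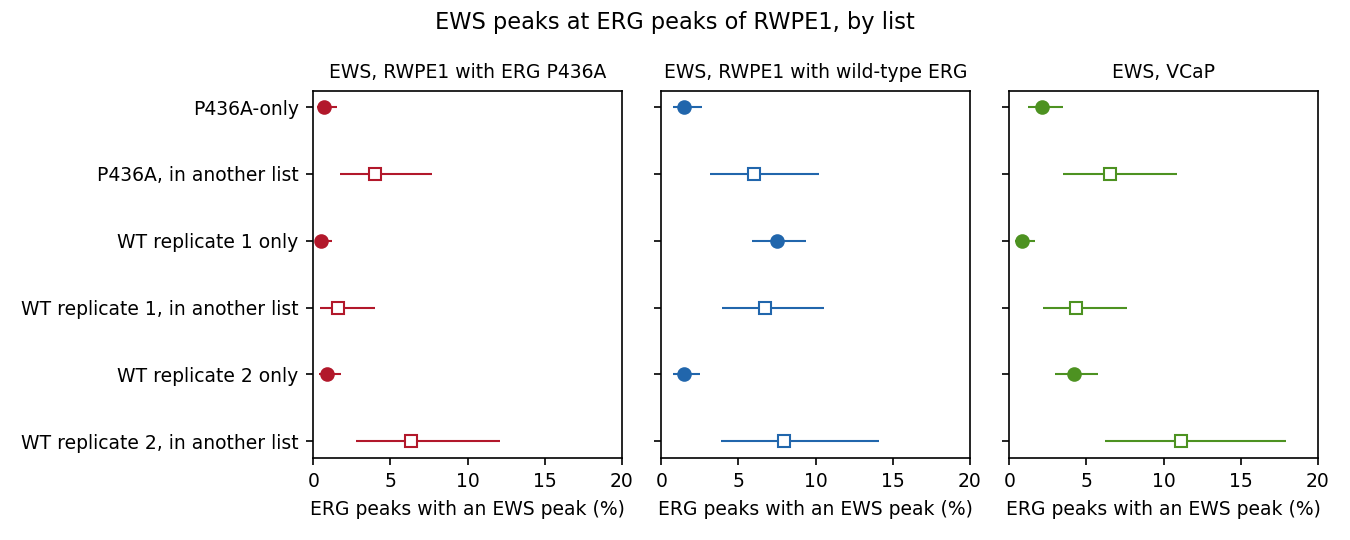
Share of RWPE1 ERG peaks that overlap an EWS peak (horizontal axis, percent, with exact 95% intervals as bars) for each EWS list, 1 per panel, with unshared ERG peaks of each list as filled circles and peaks found in another ERG list as open squares. The P436A-only peaks are at 0.672%, 1.48% and 2.15%, each below the open square of the same list, and wild-type replicate 1 stands out with 7.51% in the middle panel.

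The 5 P436A-only peaks with EWS in the same cells lay on 4 chromosomes. The closest match was chr7:118140568-118141057, whose EWS peak shared 489 bp and had its centre 5.5 bp away. The peak at chr1:220089608-220090088 shared 457 bp with its EWS peak, with centres 27 bp apart. At chr1:173122919-173123385 the overlap was 356 bp and the centres were 92.5 bp apart. The peak at chr15:25312425-25312905 shared 219 bp with EWS of P436A cells, with centres 270 bp apart, and also 268 bp with VCaP EWS. The fifth, chr10:74241126-74241617, touched its EWS peak by 27 bp and the centres were 451.5 bp apart. In 3 of the 5 the centres were thus within 100 bp, and the other 2 were offset to the same side.

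No P436A-only peak had a peak in all 3 EWS lists, 2 had one in 2 lists and 28 in 1 list. Besides the chromosome 15 peak, the other with 2 lists was chr1:16947372-16947870, which shared 469 bp with EWS of wild-type ERG cells and 499 bp with VCaP EWS, with the VCaP centre 0.5 bp away.

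At the 11 peaks with EWS of wild-type ERG cells, the overlap ran from 319 to 501 bp with a median of 468 bp, and the centres were a median of 46.5 bp apart. Among them, chr11:62608851-62609351 lay wholly inside an EWS peak of 1006 bp that stood at place 16 of its list, and chr8:144798826-144799324 lay wholly inside one of 810 bp. At the 16 peaks with VCaP EWS the overlap ran from 170 to 499 bp with a median of 390.5 bp, and the centres were a median of 84.25 bp apart. Over the 32 pairs, 19 had centres within 100 bp and 3 shared less than 250 bp. Pairs had to overlap and most of these peaks are narrow, so the overlap rule itself keeps the centres close. No other set of peaks was measured beside these pairs, and the distances are a description.

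**Figure D4:**
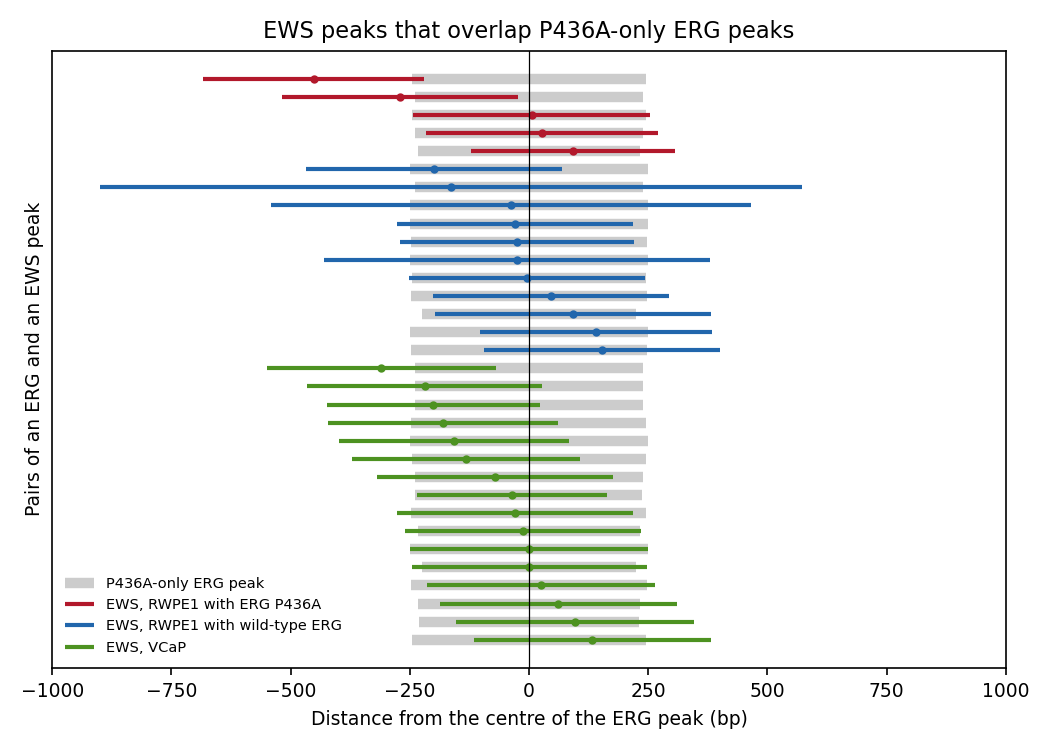
The 32 pairs of a P436A-only ERG peak (grey bar) and the EWS peak that overlaps it (coloured line, dot at its centre), 1 pair per row, against distance from the centre of the ERG peak (horizontal axis, bp) and sorted by offset within each EWS list. Of the 32 EWS centres, 19 are within 100 bp of the ERG centre, and the farthest is the 451.5 bp of a pair in P436A cells.

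The 30 peaks with EWS were found on 10 chromosomes. Chromosome 1 had 10 of its 156, chromosome 8 had 6 of its 62, chromosome 10 had 4 of its 75 and chromosome 19 had 3 of its 44. On chromosome 1, 6 of these were with EWS of wild-type ERG cells, and on chromosomes 8 and 19 most were with VCaP EWS, 4 of 6 and 3 of 3. In each case this was the EWS list with the most kept peaks there. VCaP EWS had 1537 on chromosome 8 and 283 on chromosome 19, against 307 and 52 for wild-type ERG cells and 68 and 34 for P436A cells. On chromosome 1 the list of wild-type ERG cells had 567, against 264 for VCaP and 170 for P436A cells. Among the 30 peaks with EWS, a pair at chr1:220345775-220346273 and chr1:220363327-220363825 stood 17053 bp apart, both with EWS of wild-type ERG cells. A second pair, chr10:47086976-47087465 and chr10:47121884-47122377, stood 34418 bp apart, both with VCaP EWS.

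Counted with the overlapping peaks, an EWS peak of P436A cells lay within 10 kb of 29 P436A-only peaks (3.90%, 2.63% to 5.55%) and within 100 kb of 147 (19.8%, 17.0% to 22.8%). For the P436A peaks found elsewhere these shares were 8.0% (4.64% to 12.7%) and 22.5% (16.9% to 28.9%), so the intervals overlapped at both distances. An EWS peak of wild-type ERG cells lay within 10 kb of 9.41% of the P436A-only peaks (7.41% to 11.7%) and of 17.5% of the others (12.5% to 23.5%). At 100 kb the shares were 36.6% and 39.0%. For VCaP EWS they were 9.27% and 14.5% at 10 kb, and at 100 kb 29.2% (25.9% to 32.6%) against 41.0% (34.1% to 48.2%). The median distance to EWS of P436A cells was 541 kb for P436A-only peaks and 522 kb for the others.

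**Figure D5:**
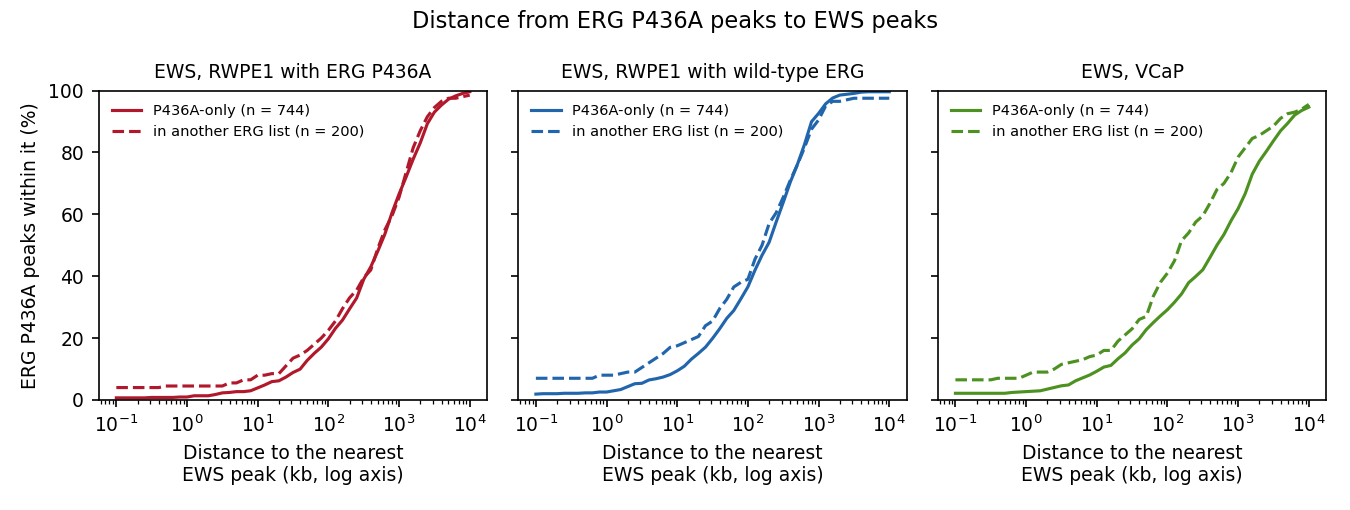
Share of ERG P436A peaks (vertical axis, percent) with an EWS peak within a given distance (horizontal axis, kb, log scale), 1 EWS list per panel, with P436A-only peaks as solid lines and P436A peaks found in another ERG list as dashed lines. The lines start apart at short distance (0.672% and 4.0% overlap in the left panel) and come together by 100 kb for the RWPE1 EWS lists (36.6% and 39.0% in the middle panel), while for VCaP EWS they are at 29.2% and 41.0% there.

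The regions left out had more EWS at peaks of the same kind. They held 802 ERG P436A peaks, of which 626 were in no other ERG list (78.1%, 75% to 80.9%), a share like that in the rest of the genome. Of these 626, 80 had an EWS peak of any list (12.8%, 10.3% to 15.7%), against 4.03% of the P436A-only peaks. The shares were 3.04% (1.84% to 4.70%) with EWS of P436A cells, 7.67% (5.71% to 10.0%) with EWS of wild-type ERG cells and 2.56% (1.47% to 4.12%) with VCaP EWS. The difference was thus in the 2 EWS lists of RWPE1, and the VCaP intervals overlap. By place, EWS of any list was at 19 of 189 such peaks on chromosome 5, 17 of 164 on chromosome 9, 30 of 210 on chromosome 20 and 14 of 63 in the chromosome 1 stretch. RWPE1 lists are crowded in these regions, and how far that crowding sets the overlap was not tested.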

How the data were processed

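The deposited files hold 3 columns per peak, chromosome, start and end, as positions in bp with no score, height or p-value, so depth is unknown. Per the submitters' processing notes, the authors aligned reads to hg19 with Bowtie2 (version given as 0.12.8). How peaks were called, at which threshold and against which control, is not given in the sources used here. ChIP DNA was sheared to about 150 nt and libraries were size-selected at 200 to 300 nt, per the labels' protocols.

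Each list belongs to 1 sample, and the 3 input samples were not used. The labels do not say whether the 2 wild-type replicates came from separate cultures. Starts were read as 0-based and are given 1-based. Peaks overlapped when they shared at least 1 bp. Shares carry exact (Clopper-Pearson) 95% intervals, and a count of 0 allows 3 counts of the total. Overlap, distance and clustering code was tested on simulated lists. Named regions were the peaks with EWS of P436A cells or of 2 EWS lists, the first 10 listed, 3 clusters by size (ties in genome order), neighbouring peaks with EWS and the peaks nearest the edge of the rule, and any other region was picked with its values in view. The peaks, lists and alternatives were chosen with earlier results of these data known. The gene and promoter tables at hand are of GRCh38.p14, so genes, motifs and sequences were not analysed here. Python 3.11.15, NumPy 2.4.6, SciPy 1.17.1 and matplotlib 3.10.9 were used.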

Additional observations from a re-analysis of the deposited data

How the results depend on the processing

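The count of P436A-only peaks, their shares with EWS and their share in clusters were recomputed under 15 alternatives, of which setting every peak to 500 bp was chosen after seeing the data. With the left-out regions kept in, 1370 peaks were P436A-only, 8.03% had EWS of any list, 1.75% EWS of P436A cells and 4.31% EWS of wild-type ERG cells, and 20.3% were in clusters. The share in clusters was 11.8% with a reciprocal overlap of 0.5 in the ERG rule, 1.34% with a gap of 20 kb and 32.8% with 500 kb. Leaving out either wild-type replicate gave 769 to 832 peaks, 4.45% to 5.07% with any EWS, 0.841% to 1.30% with EWS of P436A cells, 1.56% to 2.04% with EWS of wild-type ERG cells, 2.16% to 2.99% with VCaP EWS and 9.75% to 11.7% in clusters. The cause of these shifts was not tested. In all, 63 recomputed values stayed within the main interval or, for counts, within 1.5 times, and 9 did not. In 13 of the 13 alternatives other than the cluster gaps, P436A-only peaks had a lower share with any EWS than the other P436A peaks, and in 3 of the 13 the intervals overlapped. No paired analysis was possible because only 1 group has replicate lists. Without read depth, a missing peak cannot be told from one below the caller's threshold.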
